A study of Mus musculus with 8 samples.

Results

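Enzymes that add or remove acetyl and methyl groups on histones were examined in the nucleus accumbens (NAc), the part of the ventral striatum that serves motivation and reward, of adult male C3H/HeN mice. They were chosen by name, as every array probe that is not a control and whose gene name starts with Hdac, Sirt, Kat, Kdm, Setd, Ehmt, Suv39h, Ezh or Prmt and a digit, with Kdm5c, Kdm5d and Kdm6a left out. This gave 58 gene names of 32053 on the array, and 90 probes of 55681. By class they were 11 zinc-dependent deacetylases (Hdac1 to Hdac11), 7 sirtuins (Sirt1 to Sirt7), 4 lysine acetyltransferase names (Kat2a, Kat2b, Kat5 and the pseudogene Kat2b-ps), 13 lysine demethylases (Kdm1a, Kdm1b, Kdm2a, Kdm2b, Kdm3a, Kdm3b, Kdm4a to Kdm4d, Kdm5a, Kdm5b and Kdm6b), 15 SET-domain methyltransferases (Setd1a, Setd1b, Setd2 to Setd8, Ehmt1, Ehmt2, Ezh1, Ezh2, Suv39h1 and Suv39h2) and 8 arginine methyltransferases (Prmt1, Prmt2, Prmt3, Prmt5 to Prmt8 and Prmt10). The array uses older names for a pair of them, since RefSeq now lists Setd8 as Kmt5a and Prmt10 as Prmt9.

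The maternal separation (MS) group held 4 C3H/HeN males that had been separated daily from their dams from postnatal day 2 to postnatal day 14, with unpredictable stress of the dams in the same period. The control group held 4 C3H/HeN males left with their dams. All were weaned on postnatal day 21, had worked for sweetened milk in operant chambers as adults and had been fasted before sampling. RNA of a whole-tissue micropunch from each mouse was hybridised to 1 single-colour array, and all arrays shared 1 slide. In the labels, 3 of the 4 mice of each group share the first part of their animal number (7 in MS and 8 in control). Whether that part stands for a litter or a cage is not said, so the p-values measure the spread between these mice, which may not be independent of each other.

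Acetylation of histone tails by the Kat enzymes loosens chromatin and is linked to active transcription, and the Hdac and Sirt enzymes take the acetyl group off again, with zinc in the first family and NAD in the second. Methylation marks depend on the residue: the Setd1 enzymes write H3K4 methylation at active promoters, Setd2 writes H3K36 methylation along transcribed genes, Ehmt and Suv39h enzymes write the repressive H3K9 mark, Ezh enzymes write the repressive H3K27 mark, and Kdm enzymes erase these marks. In the striatum, Hdac4 and Hdac5, Ehmt1 and Ehmt2, and other enzymes of these families are known from work on responses to drugs, reward and stress.

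Of the 90 probes, 88 had signals well above background on each of the 8 arrays, and 89 were tested, among them at least 1 probe for each of the 58 names. The 1 probe left out was the dimmest of 3 probes of Kdm3b. Levels are log2 of the signal relative to the 75th percentile of the array, differences are MS minus control in the same unit, each followed by its standard error (SE) in the fit, and where a gene had several probes the one with the highest average signal was taken. Between mice of a group the SD of a gene lay between 0.01 and 0.40, with a median over genes of 0.10 in MS mice and 0.09 in control mice.

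No enzyme passed the threshold of an adjusted p under 0.05 (limma, Benjamini-Hochberg over all 33111 probes tested), where 0.00302% of all probes did, which is a single probe outside the set. At an unadjusted p under 0.05, 6 of the 89 probes were higher in MS mice, against 6.35% of all probes, and 4 were lower, against 7.71%. MS and control mice did not overlap for 6 probes on the higher side, against 3.76% of all probes, and for 1 probe on the lower side, against 4.91%. As shares of the 89 probes these were 6.74% and 1.12%. On the deposited log2 values, 5 of 88 probes did not overlap on the higher side, against 4.24% of all deposited probes, and 2 on the lower side, against 4.64%. The differences were small. Over the 58 genes they ran from -0.35 (Hdac7) to 0.26 (Setd5), with a median of 0.04 against 0.00 over all 21509 gene names tested, and none was over 0.5 in size, against 4.79% of all gene names. The size of the difference had a median of 0.10 over the 58 genes, against 0.11 over all gene names. On the probe taken for each gene, the 95% interval of the MS over control ratio stayed within 1.5-fold in either direction for 57 of the 58 genes, and within 1.2-fold for 24. The exception at 1.5-fold was Setd5, with an upper bound of 1.54. Dimmer probes could be wider, such as 0.670 to 2.09 on a probe of Suv39h2 and 0.605 to 1.18 on a probe of Prmt6. These intervals treat the 8 mice as independent, which they may not be, so they may be too narrow.

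**Figure D1:**
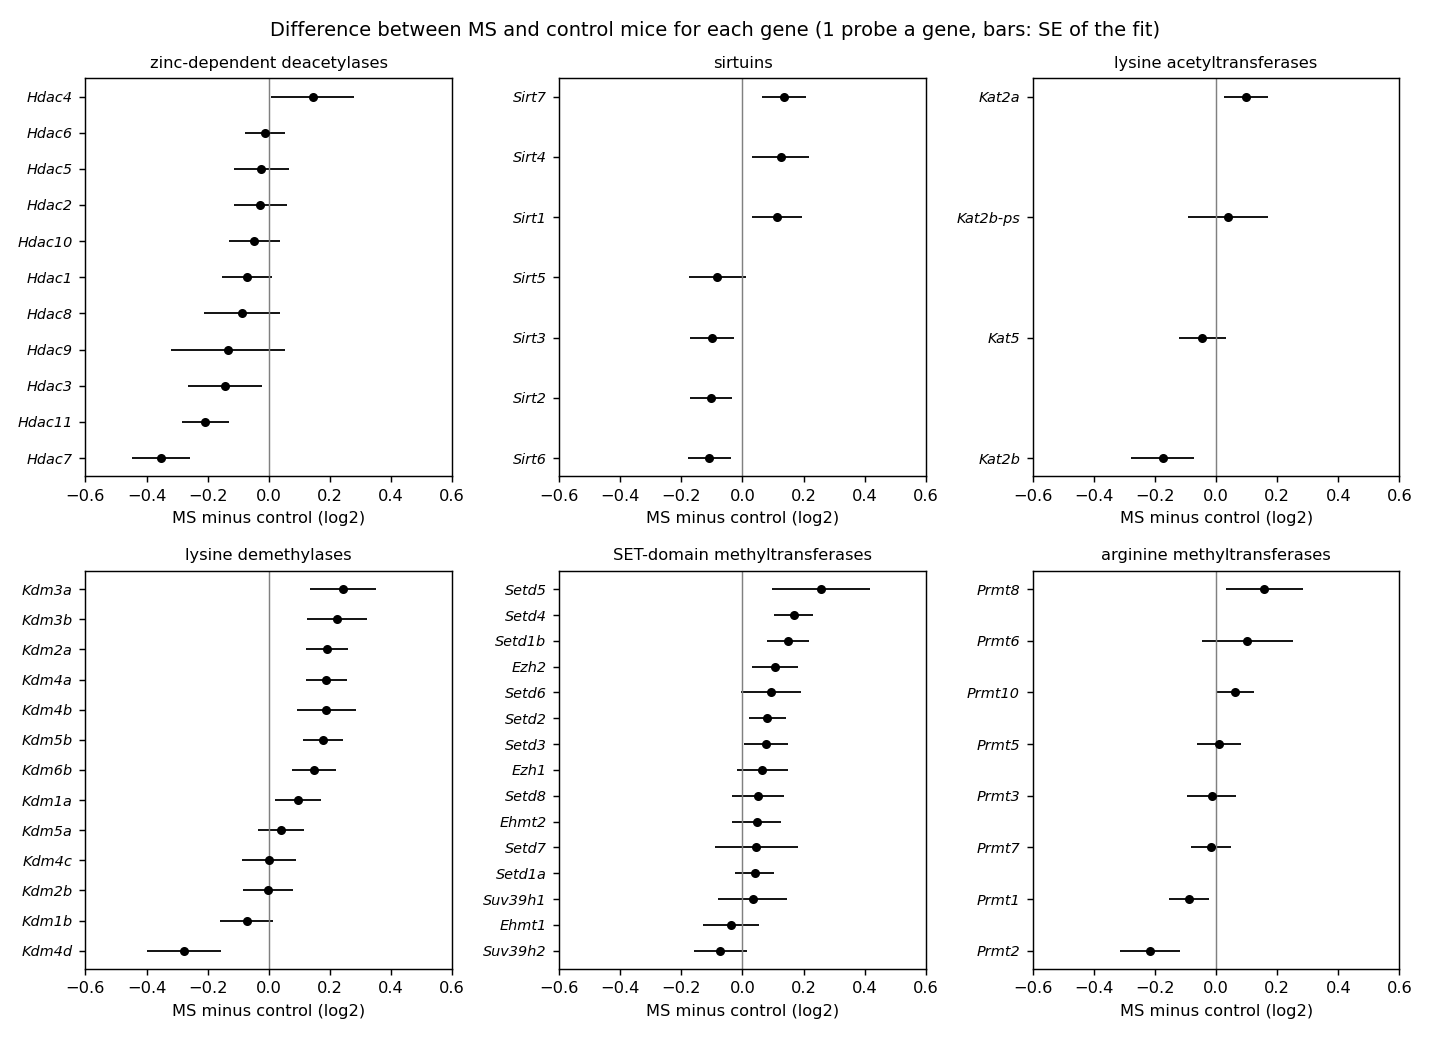
Difference between MS and control mice (MS minus control, log2, horizontal axis) for each of the 58 genes, 1 panel per class, with points for the estimate and bars for the SE of the fit (n = 4 mice per group). Most Hdac points lie left of 0 and most Kdm and SET-domain points lie right of it, all between -0.35 and 0.26, and no gene passed the adjusted threshold.

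The sign of the differences was unevenly spread over the classes. The estimate was below 0 for 10 of 11 Hdac genes and above 0 for 10 of 13 Kdm genes and 13 of 15 SET-domain genes, whereas the sirtuins (3 above, 4 below), the Kat names (2 and 2) and the Prmt genes (4 and 4) were mixed. Over all gene names tested, 49.8% were above 0. Class medians were -0.07 for the Hdac genes, -0.08 for the sirtuins, 0.00 for the Kat names and for the Prmt genes, 0.15 for the Kdm genes and 0.06 for the SET-domain genes. The Hdac median was -0.02 without control replicate 4, and the sirtuin median was -0.01 without MS replicate 1. These are counts of estimates that did not pass the threshold one by one, and genes measured in the same 8 mice are not independent, so no test was made of them. When arrays were scaled on the median in place of the 75th percentile, all differences moved up by about 0.05 and the Hdac count below 0 became 7 of 11, while 62.7% of all probes, in place of 50.6%, were above 0, and 70.7% of the 58 genes, in place of 56.9%. Over all 12 settings that keep every mouse, 9 to 11 Kdm genes and 13 to 14 SET-domain genes were above 0. Among these, the filters, the slide blocks and the moderation leave the estimates unchanged, so only the other settings bear on the counts. With 1 mouse left out, 9 to 11 Kdm genes and 12 to 14 SET-domain genes were above 0.

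Expressed per mouse, as the mean over the genes of a class of the level minus its mean over all 8 mice, the demethylases stood at 0.01, 0.05, 0.08 and 0.04 in MS mice, against -0.07, -0.05, -0.00 and -0.06 in control mice. In the main setting, the 4 MS mice were all above the 4 control mice. Only 0.01 lay between the lowest MS mouse and the highest control mouse. Scaling on the median moves each array by its own amount. The 75th percentile and median signals were 320 and 26.6 in MS replicate 1. They were 380 and 29.1 in control replicate 1, and 317 and 24.3 in control replicate 2. With median scaling MS replicate 1 therefore falls below both of these control mice, and the groups overlap. The SET-domain genes gave 0.05, 0.02, 0.06 and 0.02 in MS mice, against -0.11, 0.04, -0.02 and -0.05 in control mice, so control replicate 2 lay among the MS mice. The Hdac genes gave -0.00, -0.12, 0.04 and -0.09 in MS mice, against 0.03, 0.03, -0.01 and 0.13 in control mice. Here the lowest values were MS replicates 2 and 4, while MS replicate 3 was higher than 3 of the 4 control mice.

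**Figure D2:**
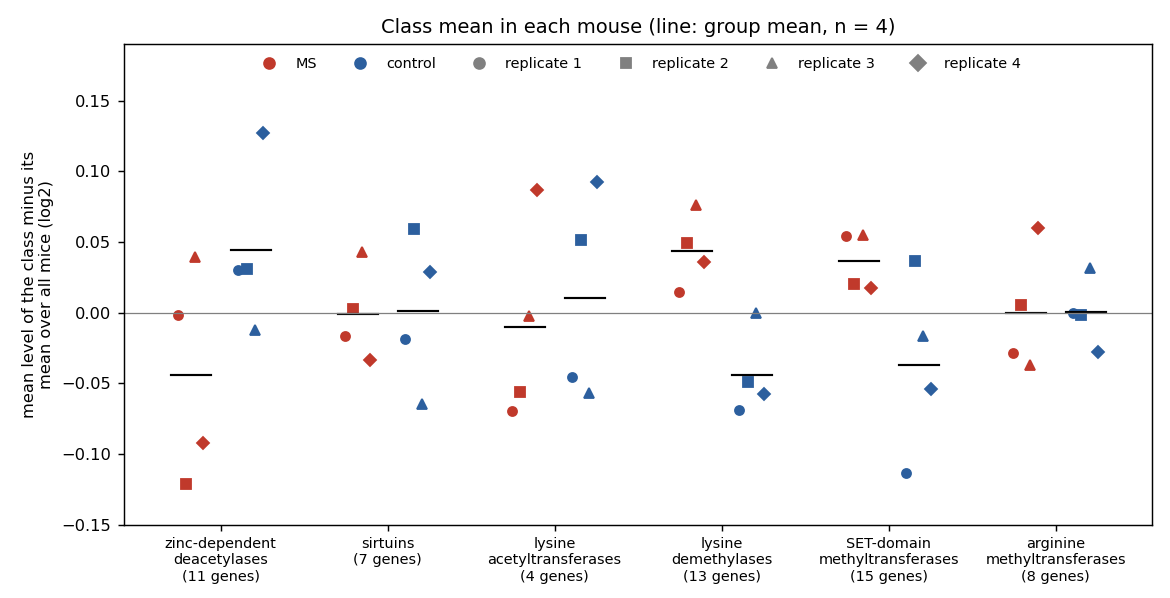
Mean level of each enzyme class in each mouse, as the deviation from the mean over all 8 mice (log2, vertical axis), with MS mice in red on the left and control mice in blue on the right of each class, marker shape for the replicate and a line for the group mean (n = 4). In the main setting, the groups are apart only for the lysine demethylases, and with median scaling they overlap there too. There MS mice lie between 0.01 and 0.08 and control mice between -0.07 and -0.00.

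Among the deacetylases, Hdac7 had the lowest estimate and the lowest adjusted p of all 58 genes. Hdac7 is a class IIa deacetylase that shuttles between nucleus and cytoplasm and is known in mice for its role in vascular integrity and in T cell development. Its level was 0.71, 0.41, 0.38 and 0.36 in MS mice, against 0.76, 0.85, 0.75 and 0.92 in control mice. All MS mice lay below all control mice, but MS replicate 1 was within 0.03 of the lowest control mouse and apart from the other 3 MS mice, which are those that share the first part of their animal number. The difference was -0.35 ± 0.09 (SE, n = 4 each), a ratio of 0.783 with a 95% interval from 0.674 to 0.909, and the adjusted p was 0.170. Its single probe lies on chromosome 15, at chr15:97623208-97623267 of mm9 on the minus strand, and carries the RefSeq transcript name of Hdac7. The first 30 of its 60 bases are shown because this is the enzyme with the lowest adjusted p, and because a single probe is all that speaks for it.
Hdac7: ccaagaaagagtatttgtgtgtatgtgtgt

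Hdac11, the only class IV deacetylase and one that is well expressed in brain, was at 1.63, 1.47, 1.37 and 1.43 in MS mice, against 1.74, 1.60, 1.70 and 1.67 in control mice. Each MS mouse but replicate 1 was below every control mouse, and MS replicate 1 was above control replicate 2. Its difference was -0.21 ± 0.08, with an adjusted p of 0.286. Hdac3, the catalytic subunit of the NCoR and SMRT corepressor complexes, was at 0.36, 0.57, 0.57 and 0.15 in MS mice, against 0.68, 0.60, 0.32 and 0.62 in control mice, and its difference of -0.14 ± 0.12 (adjusted p 0.643) came with groups that overlapped widely.

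The remaining Hdac genes were nearer to 0. The class I enzyme Hdac2 and the class II enzymes Hdac5 and Hdac6 had differences of -0.03 ± 0.09, -0.02 ± 0.09 and -0.01 ± 0.07. Their 95% intervals on the log2 scale ran from -0.23 to 0.17 for Hdac2, from -0.23 to 0.18 for Hdac5 and from -0.16 to 0.14 for Hdac6. Hdac4, the class IIa enzyme that is abundant in neurons, was the only Hdac gene with an estimate above 0, at 0.14 ± 0.14, and its levels in MS mice ranged from 0.30 to 0.97 against 0.42 to 0.57 in control mice. Without MS replicate 3 it was 0.02, and without MS replicate 2 it was 0.25. Hdac9, another class IIa enzyme, was at -0.13 ± 0.19, with 1 MS mouse (replicate 3, at -0.60) far above the other 3 (-1.48 to -1.28). Without that mouse it was -0.33, and without MS replicate 2 it was -0.04. The spread between mice was larger in MS than in control mice for 9 of the 11 Hdac genes, and for 32 of the 58 genes. Hdac8 and Hdac10 had differences of -0.09 and -0.05. On their other probes these were 0.05 ± 0.18 for Hdac8, of the opposite sign, and -0.08 ± 0.08 for Hdac10.

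Hdac1, a class I deacetylase of the NuRD, Sin3 and CoREST complexes, is covered by 3 probes that all carry the same transcript name and lie close together on chromosome 4, minus strand. In mm9 they are at chr4:129193716-129193775, chr4:129193527-129193586 and chr4:129193374-129193433, given here in the 5′ to 3′ direction of the gene, with start points 342 bases apart from the first to the last. They are shown because their readings of the same gene differ in size. The first 30 of 60 bases of each are
Hdac1, 5′ probe: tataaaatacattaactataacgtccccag
Hdac1, middle probe: tgttaaactttttaggaggggtctgggtct
Hdac1, 3′ probe: gtggaggttgatagcctagcttcctttttg
The 3′ probe, which has the highest level and stands for the gene, was at 2.46, 2.41, 2.49 and 2.31 in MS mice, against 2.47, 2.36, 2.48 and 2.65 in control mice, a difference of -0.07 ± 0.08 (adjusted p 0.756). The middle probe gave -0.54, -0.71, -0.50 and -0.76 in MS mice, against -0.30, -0.55, -0.38 and -0.47 in control mice, a difference of -0.20 ± 0.09 (adjusted p 0.354). The 5′ probe gave -2.06, -2.35, -2.56 and -2.39 in MS mice, against -1.93, -2.09, -2.04 and -1.95 in control mice, a difference of -0.34 ± 0.11 (adjusted p 0.224). All 3 probes were lower in MS mice on average, none passed the adjusted threshold, and the groups overlapped on all 3. The estimate was further from 0 the further the probe lay from the 3′ end. The signal fell in the same order, so position and signal level cannot be told apart. On the 5′ probe MS replicate 1 was again the mouse nearest to the controls, and it lay within their range. Whether the differences between the probes exceed their error was not tested.

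Hdac6, the mainly cytoplasmic deacetylase of tubulin, gives a measure of how closely probes of largely shared sequence repeat each other. Its 2 probes overlap by 48 bases on chromosome X (chrX:7507261-7507320 and chrX:7507249-7507308, mm9, minus strand). The first 30 bases of each follow, with the bases that also occur in the other probe in capitals.
Hdac6, first probe: acattgaaggagACAACGGGGCAGTGGCAG
Hdac6, second probe: ACAACGGGGCAGTGGCAGCAGGTCAGCATA
Within a mouse the readings of the 2 probes differed by at most 0.07, and their differences between groups were 0.01 ± 0.07 and -0.01 ± 0.07. Hdac2 and Setd2 are each printed as 10 spots per array, of which 8 to 10 were usable. The SD between spots of an array was 0.07 to 0.13 for Hdac2 and 0.03 to 0.06 for Setd2, on the log2 scale.

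**Figure D3:**
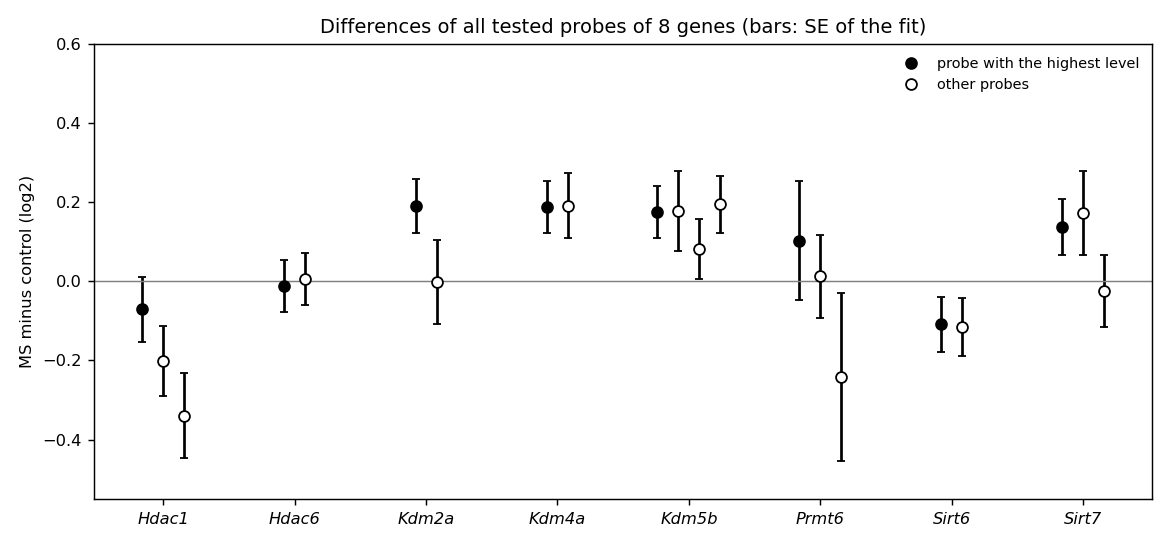
Difference between MS and control mice (MS minus control, log2, vertical axis) for every tested probe of 8 genes, with the probe of the highest level filled and the others open and bars for the SE of the fit (n = 4 mice per group). The 4 Kdm5b probes and both Kdm4a probes lie above 0, the 3 Hdac1 probes lie below 0 at unequal distances, and the probes of Kdm2a, Prmt6 and Sirt7 lie on both sides of 0.

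Over the whole set, 23 genes had several tested probes. In 13 of them all probes had the same sign, and in 10 they did not, with no gene whose probes were over 0.5 apart. The widest gap was 0.34, for Prmt6, and the median gap was 0.11, about the size of a typical difference in this set.

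Of the sirtuins, which couple deacetylation to the NAD supply of the cell, Sirt7, Sirt6 and Sirt2 had the lowest p. Sirt7, a nucleolar enzyme tied to ribosomal DNA transcription, was at 3.46, 3.45, 3.58 and 3.37 in MS mice, against 3.33, 3.33, 3.40 and 3.25 in control mice, a difference of 0.14 ± 0.07 (adjusted p 0.433). MS replicate 4 fell below control replicate 3. Its other probes gave 0.17 and -0.02. Sirt6, a chromatin-bound H3K9 deacetylase, was at 0.46, 0.39, 0.38 and 0.42 in MS mice, against 0.55, 0.63, 0.41 and 0.48 in control mice, and both of its probes gave about the same estimate, -0.11 ± 0.07 and -0.12 ± 0.07 (adjusted p 0.531 and 0.524). Sirt2, the tubulin deacetylase that is enriched in oligodendrocytes, was at 2.78, 2.67, 2.65 and 2.78 in MS mice, against 2.83, 2.91, 2.73 and 2.83 in control mice, a difference of -0.10 ± 0.07 (adjusted p 0.556). Beside it, the estimates of all 7 oligodendrocyte markers tested, such as Mag of myelin, were below 0, with a median of -0.22 and none past the adjusted threshold. Sirt1, the best studied sirtuin of the nucleus, and the mitochondrial Sirt3 had differences of 0.11 ± 0.08 and -0.10 ± 0.07.

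The acetyltransferases held 3 genes and a pseudogene under these names. The pseudogene Kat2b-ps had a difference of 0.04, and whether its probe also reads Kat2b, the gene it is named after, was not tested. Kat2b, known as PCAF and a coactivator acetyltransferase, was at -1.92, -1.70, -1.99 and -1.77 in MS mice, against -1.80, -1.63, -1.78 and -1.46 in control mice, a difference of -0.17 ± 0.10 (adjusted p 0.495). Kat2a, its paralogue GCN5, was at 2.05, 2.12, 2.13 and 2.15 in MS mice, against 2.13, 2.07, 1.95 and 1.91 in control mice, a difference of 0.10 ± 0.07 (adjusted p 0.597), and its other probe gave -0.01 ± 0.11. Kat5, the Tip60 enzyme that acetylates H4 and acts in DNA repair, had -0.04 ± 0.08 and -0.05 ± 0.07 on its 2 probes (adjusted p 0.847 and 0.828), with levels of 3.86, 3.65, 3.86 and 3.91 in MS mice, against 3.85, 3.84, 3.95 and 3.82 in control mice on the first. In each of the 3 genes the groups overlapped.

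The lysine demethylases held 3 of the 5 genes whose groups did not overlap on the probe that stands for them. Over the 58 genes these were 4 on the higher side, against 3.77% of all gene names, and 1 on the lower side, against 5.40%. These separations are those of the main setting. With median scaling Kdm2a and Setd4 overlap, since control replicate 2 then lies above MS replicate 1 for both. Kdm4a stays apart. Kdm5b and Hdac7 also stay apart, but with MS replicate 1 almost level with a control mouse, replicate 2 for Kdm5b and replicate 3 for Hdac7. Kdm4a, a Jumonji enzyme that removes methyl groups from H3K9 and H3K36, was at 1.97, 2.05, 1.99 and 2.03 in MS mice, against 1.78, 1.76, 1.93 and 1.83 in control mice. The groups did not overlap, and the difference was 0.19 ± 0.07, a ratio of 1.14 (95% interval 1.03 to 1.26), with an adjusted p of 0.263. A second probe of the gene gave -2.76, -2.73, -2.87 and -2.88 in MS mice, against -3.09, -2.91, -3.13 and -2.88 in control mice, and its difference was 0.19 ± 0.08 (adjusted p 0.349), again with no overlap, although MS replicate 4 and control replicate 4 were almost level. Both probes lie on chromosome 4, minus strand, at chr4:117814727-117814786 and chr4:117809639-117809698 of mm9, with starts 5088 bases apart. Their first 30 of 60 bases are shown since 2 separate sequences of the gene gave the same estimate.
Kdm4a, 5′ probe: ccctgcagtccactgaaatatgcttatatc
Kdm4a, 3′ probe: cttcataccttgctctgtatacaggagtca

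Kdm5b, which erases H3K4 trimethylation, is covered by 4 probes, all above 0. The probe that stands for the gene was at 4.24, 4.28, 4.19 and 4.19 in MS mice, against 4.06, 4.12, 4.08 and 3.94 in control mice, with no overlap and a difference of 0.18 ± 0.07 (ratio 1.13, 95% interval 1.02 to 1.25, adjusted p 0.290). A probe named for a cDNA clone, the first in the order of the gene, was at -0.24, -0.11, -0.14 and -0.24 in MS mice, against -0.34, -0.28, -0.46 and -0.43 in control mice, also with no overlap, and its difference was 0.19 ± 0.07 (adjusted p 0.284). The other 2 probes had differences of 0.18 ± 0.10 and 0.08 ± 0.08, with overlapping groups. The 4 probes lie on the plus strand of chromosome 1 at chr1:136503116-136503175, chr1:136527740-136527799, chr1:136528046-136528105 and chr1:136528957-136529016 of mm9, and the third of them stands for the gene. Their starts span 25841 bases. The first 30 bases of each are shown in that order, since they show that the 4 readings rest on unlike sequences.
Kdm5b, probe 1: ggaagtttagtagggatgtttgtgagtgct
Kdm5b, probe 2: tggcaaacggcctgcccgattttgaatggc
Kdm5b, probe 3: ctgtacacggtgctatttctattccttatg
Kdm5b, probe 4: gaccagagccagtcctttaagccatgttct

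Kdm2a, an H3K36 demethylase that binds CpG islands, was at 0.26, 0.30, 0.33 and 0.17 in MS mice, against 0.05, 0.16, -0.00 and 0.09 in control mice. The groups did not overlap, with MS replicate 4 and control replicate 2 almost level, and the difference was 0.19 ± 0.07 (ratio 1.14, 95% interval 1.02 to 1.27, adjusted p 0.276). Its other probe, at -0.43, -0.62, -0.57 and -0.70 in MS mice, against -0.56, -0.36, -0.57 and -0.81 in control mice, gave a difference of -0.00 ± 0.11, so the separation was seen on 1 of 2 probes.

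**Figure D4:**
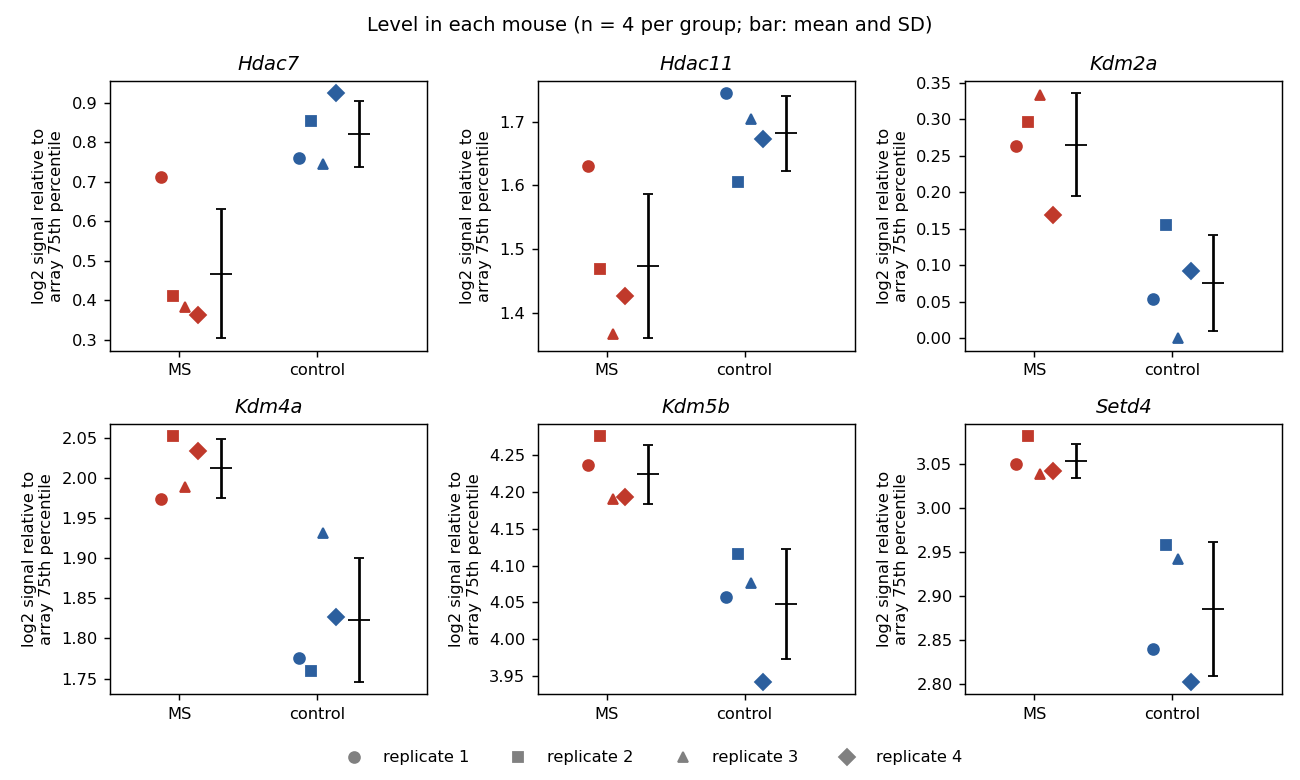
Level of 6 genes in each mouse (log2 signal relative to the 75th percentile of the array, vertical axes of unequal range that do not start at 0), with MS mice in red on the left, control mice in blue on the right, marker shape for the replicate and a bar for the mean and SD (n = 4 per group). Hdac7 is lower and Kdm2a, Kdm4a, Kdm5b and Setd4 are higher in every MS mouse than in every control mouse, Hdac11 overlaps by 1 mouse, and the steps are between 0.17 and 0.35 on average.

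The other erasers overlapped between the groups. Kdm6b, which removes the H3K27 mark written by Ezh enzymes, had 0.15 ± 0.07 (adjusted p 0.403), and Kdm1a, the LSD1 enzyme of the CoREST complex, had 0.10 ± 0.08 (adjusted p 0.614). Named after their values were seen, as the ends of the class, the H3K9 demethylase Kdm3a was at 0.24 ± 0.11 and the H3K9 demethylase Kdm4d at -0.28 ± 0.12 (adjusted p 0.359 and 0.356), both with overlapping groups. Kdm3b and Kdm4b were at 0.22 and 0.19. The remaining 4 genes of the class, Kdm1b, Kdm2b, Kdm4c and Kdm5a, lay between -0.07 and 0.04.

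Of the SET-domain enzymes, Setd4 was the 1 gene with separated groups in the main setting. It encodes a lesser known SET-domain methyltransferase. Its levels were 3.05, 3.08, 3.04 and 3.04 in MS mice, with an SD of 0.02, against 2.84, 2.96, 2.94 and 2.80 in control mice, with an SD of 0.08. The difference was 0.17 ± 0.06 (ratio 1.12, 95% interval 1.01 to 1.24), with an adjusted p of 0.301. Setd1b, a catalytic subunit of a Set1 H3K4 methyltransferase complex, was at 2.50, 2.46, 2.39 and 2.42 in MS mice, against 2.31, 2.42, 2.24 and 2.21 in control mice, where control replicate 2 lay within the MS range. Its difference was 0.15 ± 0.07 (adjusted p 0.390), and 0.12 ± 0.13 on its second probe. Setd5 had the highest estimate of all, 0.26 ± 0.16, from levels of 3.73, 3.51, 3.51 and 3.45 in MS mice, against 2.83, 3.30, 3.39 and 3.64 in control mice. Control replicate 1 was far below the others and control replicate 4 was above 3 of the MS mice, the adjusted p was 0.516, the difference without control replicate 1 was 0.11, and it was 0.55 in one row of the slide and -0.03 in the other.

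On the probes that stand for them, the 9 Setd genes were all above 0, between 0.04 and 0.26, but for all of them except Setd4 the groups overlapped. The other probe of Setd8 gave -0.08 ± 0.08, against 0.05 ± 0.09 on the probe with the highest level. Setd1a, the paralogue of Setd1b, had 0.04 ± 0.06, the H3K36 trimethylase Setd2 had 0.08 ± 0.06, and Setd7, an H3K4 monomethyltransferase that also acts on other proteins, had 0.05 ± 0.14. The writers of repressive marks in the set had estimates of a similar size. Ehmt1 and Ehmt2, the GLP and G9a pair that methylates H3K9, were at -0.04 ± 0.09 and 0.05 ± 0.08. Suv39h1, which writes H3K9 trimethylation in heterochromatin, was at 0.03 ± 0.11. Suv39h2 was at -0.07 ± 0.09, and its dimmer probe gave 0.24 ± 0.36. Ezh1 and Ezh2, the catalytic subunits of the Polycomb complex PRC2, were at 0.06 ± 0.08 and 0.11 ± 0.08. The 95% intervals as MS over control ratios spanned 0.843 to 1.13 for Ehmt1, 0.911 to 1.17 for Ehmt2, 0.917 to 1.19 for Ezh1 and 0.955 to 1.21 for Ezh2.

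The arginine methyltransferases showed no common direction. Prmt2, a coactivator of nuclear receptors, was at 4.19, 4.11, 4.21 and 4.28 in MS mice, against 4.23, 4.40, 4.38 and 4.66 in control mice, a difference of -0.22 ± 0.10 (adjusted p 0.372). Only MS replicate 4 reached into the control range. Control replicate 4, the array with the most probes above background (69.7%), stood highest, and without it the difference was -0.13. Prmt1, the main enzyme of asymmetric arginine dimethylation, was at 4.32, 4.44, 4.41 and 4.30 in MS mice, against 4.43, 4.39, 4.52 and 4.50 in control mice, a difference of -0.09 ± 0.07 (adjusted p 0.601). Prmt8, a membrane-bound enzyme found mainly in neurons, was at 1.96, 2.10, 1.70 and 2.13 in MS mice, against 1.81, 1.93, 1.96 and 1.56 in control mice, a difference of 0.16 ± 0.13 (adjusted p 0.621), with groups that overlapped through most of their range. Prmt5, the main enzyme of symmetric dimethylation, had 0.01 ± 0.07. Prmt6, which methylates H3R2, had 0.10 ± 0.15 on the probe with the highest level, and its other probes gave 0.01 ± 0.10 and -0.24 ± 0.21.

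The arrays lay in 2 rows and 4 columns on the slide, with both groups in each row and 1 array of each group in each column. Within the 2 rows the differences were -0.24 and -0.46 for Hdac7, 0.18 and 0.20 for Kdm2a, 0.24 and 0.13 for Kdm4a, 0.17 and 0.18 for Kdm5b and 0.17 and 0.17 for Setd4. Over the 4 columns Hdac7 ran from -0.51 to -0.03 and Kdm4a from 0.04 to 0.27. Since the groups of these genes do not overlap, the sign in each row and column was fixed by that, and only the sizes are information. Hdac11, whose groups overlapped, was at -0.12 and -0.29 in the rows.

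Genes that work with these enzymes, listed by function, gave small differences as well, and none of the 7 lists held a gene past the adjusted threshold. Estimates were above 0 for 10 of 14 other acetyltransferases (median 0.07), with the lowest p for the nuclear receptor coactivator Ncoa3 (0.22 ± 0.07, adjusted p 0.216) and for Gtf3c4 of the transcription factor TFIIIC (0.19 ± 0.07, adjusted p 0.301). They were above 0 for all 8 other demethylases or Jumonji proteins (median 0.12), with the lowest p for Jhdm1d, now called Kdm7a (0.36 ± 0.12, adjusted p 0.234), and for Jarid2, a Jumonji protein without demethylase activity that binds PRC2 (0.16 ± 0.08, adjusted p 0.404). Other lysine methyltransferases were above 0 in 13 of 20 (median 0.10), and the arginine methyltransferase Carm1, listed with them, was at -0.01. The lowest p fell on Smyd2 at -0.49 ± 0.13 (adjusted p 0.173) and the H3K9 enzyme Setdb1 at 0.24 ± 0.08 (adjusted p 0.236).

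The complexes that hold the enzymes were mixed. Of 23 genes of deacetylase corepressor complexes, 16 were above 0 (median 0.05), and the 3 lowest p fell on NuRD subunits in both directions. Mta3 was at -0.31 ± 0.08 and Gatad2a at -0.31 ± 0.11 (adjusted p 0.168 and 0.282), while Mbd2 was at 0.21 ± 0.08 (adjusted p 0.283). Mta3 averaged 2.52 in MS mice and 2.83 in control mice, and its groups did not overlap, and neither did those of Mbd2, at 2.07 in MS mice and 1.86 in control mice on average. PRC2 partners were split 4 and 4 (median -0.02), with Phf1 at -0.16 ± 0.07 and Mtf2 at 0.12 ± 0.07. Core subunits of the MLL complexes were above 0 in 4 of 7 (median 0.03), with Wdr5 at 0.11 ± 0.06 and Dpy30 at -0.10 ± 0.07. Readers of acetyl and methyl marks were above 0 in 10 of 15 (median 0.07), with the heterochromatin protein gene Cbx3 at -0.12 ± 0.07. At an unadjusted p under 0.05 the 96 genes of the 7 lists held 7 above and 3 below 0, where 6.00% of all gene names were above and 8.21% below.

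Markers of several cell types had larger differences than any of the enzymes. All 13 markers of medium spiny neurons, the main neurons of the NAc, had estimates above 0, with a median of 0.33, and the log2 of their summed signal was 9.99 to 10.27 in MS mice and 9.50 to 10.08 in control mice. For all of them but Adora2a, control replicate 4 was the lowest control mouse. Rgs9 was at 6.29 there, against 6.87 to 7.02 in the other control mice, and Ppp1r1b at 6.96, against 7.58 to 7.73. Without that mouse the differences between the group means stayed above 0 for all 13 markers, but each was smaller. Part of the shift thus rests on that mouse, and no fit without it was examined for the markers. Of 9 markers of pallidal neurons, which lie next to the NAc, 7 had MS mice below every control mouse, with a median of -1.17 (Npas1 -2.26, Pvalb -2.07), and the summed signal was 4.96 to 5.04 in MS mice and 5.17 to 5.38 in control mice. Of 10 astrocyte markers 8 were below 0 (median -0.26). Their summed signal was 6.00 to 6.13 in MS mice and 6.27 to 6.49 in control mice. The sizes were uneven, with the largest falls in Agt, Itih3 (-1.27), Slc6a11 (-1.01) and Gfap (-0.66). S100b and Aldh1l1 were at -0.28 and -0.25. Slc1a3 (-0.12), Gja1 (-0.16), Aqp4 (0.06) and Slc1a2 (0.16) had overlapping groups, and so did Gfap and S100b. The shift was thus not shared by all astrocyte markers. Of 5 markers of oligodendrocyte precursors all 5 were below 0 (median -0.31). Their summed signal was 3.08 to 3.13 in MS mice and 3.30 to 3.62 in control mice. Of 7 microglia markers all 7 were below 0 (median -0.17), with summed signals of 5.64 to 5.84 in MS mice and 5.72 to 6.06 in control mice. Of 6 blood vessel markers 3 were above and 3 below 0 (median -0.04), with the endothelial Cldn5 at 0.13 and Tek at -0.22, and a summed signal of 3.85 to 4.04 in MS mice and 3.79 to 3.95 in control mice. None of these markers passed the adjusted threshold, and all those tested were above background on every array except the cortical gene Emx1, which was so in 2 mice of each group. The cortical markers Slc17a7 and Neurod6 were too dim to be tested. In tissue punches, fewer cells of a type and less RNA per cell cannot be told apart, and the part of these shifts in the differences of the Hdac, Kdm and Setd genes was not tested.

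**Figure D5:**
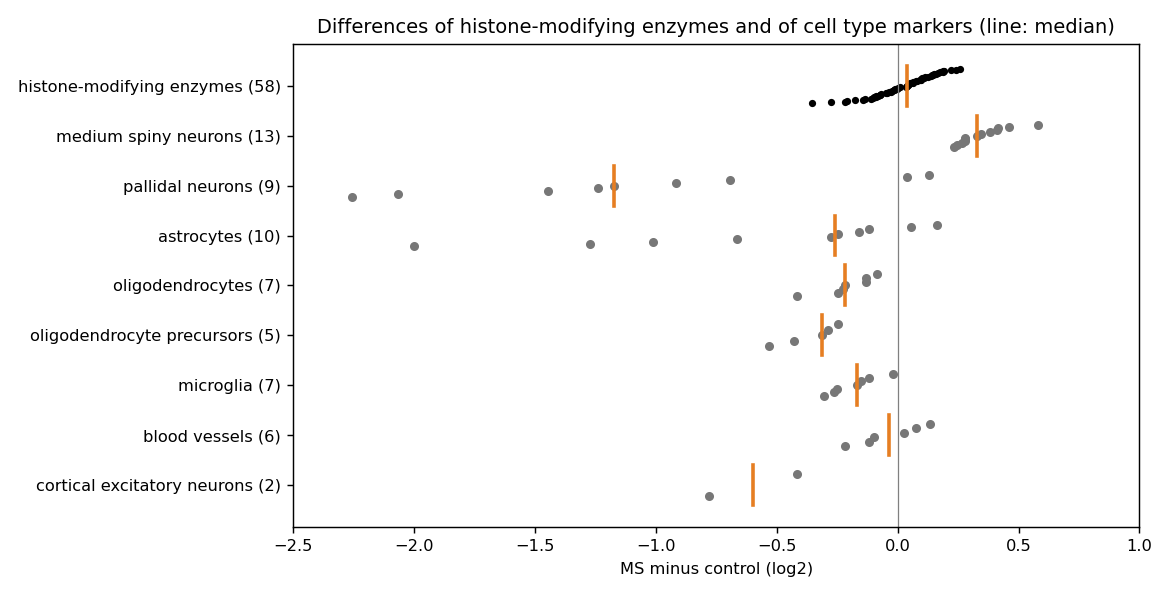
Difference between MS and control mice (MS minus control, log2, horizontal axis) for the 58 enzyme genes in the top row and for the tested markers of 8 cell types below, with 1 point per gene and a line at the median. The enzymes span -0.35 to 0.26, while pallidal markers reach -2.26 and all 13 markers of medium spiny neurons lie above 0.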

How the data were processed

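The intensity values in the deposited scanner files were made by the authors with Agilent Feature Extraction 10.10.1.1 (local background subtracted) from 40 ng of RNA per mouse. Genome build mm9 and probe names are those of the array headers, which give another array design than the study's methods. A table of log2 values deposited by the authors was used as an alternative, and its normalization between arrays is not given in the sources used here. The submitters' processing notes also name limma.

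Control spots were dropped, as were spots with outlier flags (122 to 189 on an array), and repeat spots were averaged on the log2 scale. No spot was saturated, and 57.3% to 69.7% of probes per array were well above background. Values were log2 processed signal minus log2 of the 75th percentile over all spots that are not controls. Probes with a value on all arrays and well above background on at least 4 of 8 (33111 of 55681) were compared with limma 3.58.1 in R 4.3.3 (lmFit, eBayes), MS minus control, with Benjamini-Hochberg adjustment at 0.05. On simulated data of these 33111 probes the fit called 77 of 100 probes shifted by 1 on the log2 scale, 95 of 100 shifted by 2 and 13 that were not shifted. Both shifts are larger than any enzyme difference, and recovery at the sizes of the enzyme differences was not simulated. The number of arrays limits the precision.

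Members, partner and marker lists, tests and alternatives were chosen with earlier results of these data known. Genes given in every mouse are the 3 with the lowest p per class, and a fixed list is given with SE, of which Kat6a, Kat6b, Kat8 and Kdm7a had no probe under these names. RefSeq names came from assembly GRCm38.p6, and 10 of the 90 probes had no match there and kept the array's name. Alternatives were other background corrections, scalings, filters and blocks, the deposited values and leaving out each mouse.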

Additional observations from a re-analysis of the deposited data

Results flagged for a closer look

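Of 74 groups of 4 mice, which are the MS and the control mice for each of 37 genes, 3 held a mouse far from the other 3 by Dixon's gap ratio at its 95% critical value, where chance gives about 5% of groups. Hdac7 in MS mice had a ratio of 0.86, with replicate 1 at 0.71 and the next mouse at 0.41. Without that mouse the difference of Hdac7 was -0.43, in place of -0.35, with an adjusted p of 0.112. Hdac4 in control mice had a ratio of 0.92, with replicate 4 at 0.57 and the next mouse at 0.44, over a whole range of 0.42 to 0.57. Sirt1 in MS mice had a ratio of 0.906, with replicate 2 at 1.22 and the next at 1.11.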

How the results depend on the processing

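No enzyme passed the threshold under any of the 19 alternatives, and the lowest adjusted p of an enzyme was 0.0634, for Hdac7 with normexp background correction. For Hdac7 the adjusted p ranged from 0.0634 to 0.416 and the difference from -0.43 to -0.31. Over all probes, 1 passed in the main setting, against 486 with normexp, 295 without background subtraction, 96 with median scaling, 375 on the deposited values, 113 with probes above background on all 8 arrays, 504 with an intensity trend and robust moderation, 443 with the animal number as a random block (estimated correlation -0.11), 0 with no filter on dim probes (4850 at an unadjusted p under 0.05), 0 with the slide column as a block (4080), and 0 to 37 with 1 mouse left out, where 37 came without control replicate 3. The cause was not tested.

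The median difference of the 58 genes was 0.04. It was 0.087 with median scaling and 0.018 to 0.050 with 1 mouse left out, and did not change sign. The Kdm median of 0.15 was 0.10 with the mean over all probes of a gene and 0.11 without control replicate 4. With median scaling the Hdac median became -0.024 and the sirtuin median -0.035. Differences near 0 changed sign. With median scaling Ehmt1 became 0.0091, Hdac2 0.019, Hdac5 0.022 and Kat5 0.0021. With the mean over probes Ehmt1 became 0.034 and Prmt6 -0.042, and on the deposited values Prmt5 became -0.019. With 1 mouse left out, the ranges that crossed 0 were -0.099 to 0.0044 for Ehmt1, -0.0076 to 0.078 for Ehmt2, -0.069 to 0.046 for Hdac2, -0.078 to 0.054 for Hdac5, -0.074 to 0.012 for Kat5, -0.026 to 0.040 for Prmt5, -0.070 to 0.119 for Setd7 and -0.056 to 0.104 for Suv39h1. The 28 other named genes kept their sign under all alternatives. The filters, the slide blocks and the moderation leave these estimates unchanged, so they could not change a sign.

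On the deposited values, chosen as a comparison after seeing the data, 7 of 88 probes had groups that did not overlap (5 higher and 2 lower in MS mice, where 4.24% and 4.64% of all deposited probes were so), against 7 of 89 (6 and 1) on the scanner values. No paired analysis was possible because the labels give the groups no shared replicate numbers, but arrays of the same slide column were compared within the column, as a block.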
